A study of Mus musculus with 2 samples.

Results

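The genes described here are 41 genes of DNA replication and S phase, a fixed list of symbols found in full among the 32285 genes of each single-cell count matrix. The rule is a list of symbols with no limit on a measured value, and each gene was read in both libraries and in retinoic acid cells poor or rich in transcripts of neutrophil granules. The cells were mouse late promyelocytes transformed by the PLZF/RARA fusion, taken from leukemic bone marrow and sorted as Cd45.2+, C-Kit+, Gr1+, Cd34- and FcγR+. The vehicle group was injected intraperitoneally with corn oil holding 10% DMSO, and the retinoic acid group with 0.8 to 1 mg retinoic acid, for 7 days. By the labels both groups consisted of fusion-transformed cells, so there was no group without the fusion, and the promoter that drives it was not given in the sources used here. The labels describe a cohort of 3 to 5 mice and do not say how many mice were pooled into a library. With 1 library per group there was no replicate spread, so no test between the groups was possible; intervals are 95% counting intervals, and they do not cover differences between animals or between libraries.

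PLZF/RARA is the fusion of a promyelocytic leukemia that responds poorly to retinoic acid, the ligand of the RARA moiety, and myeloid progenitors normally stop dividing as they mature into neutrophils. DNA replication is prepared in G1, when Cdc6 and its partners load the Mcm helicase onto origins. In S phase Cdc45 and the GINS complex switch the helicase on, primase and polymerase alpha lay primers, and the Pcna clamp holds the extending polymerases and the enzymes that join the new strands. Ribonucleotide reductase and thymidylate synthase supply the building blocks, fork protection factors guard stalled forks, and chaperones pack the daughter strands with new histones. Many genes of this programme are targets of E2F transcription factors, which are held back by the retinoblastoma family. Cyclin-dependent kinases, that of cyclin E among them, inactivate this family.

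Because E2F is the textbook regulator of the group, the RefSeq promoter windows (GRCm38.p6, 250 bases before and 50 after each start) were searched for the words TTTCCCGC and TTTGGCGC on both strands, and for CCAAT, the word of the NF-Y factor, on both strands. Windows were listed for 31 of the 41 genes; Dscc1, Gins2, Rfc2, Usp1, Gmnn, Atad2, Tipin, Exo1, Mcm4 and Ccne2 had none in the table. An E2F word lay in 10 of the 31 windows (32.3%), against 1.60% of 26994 windows of other genes and 3.63% of the 5840 windows of other genes that were expressed highly enough to be compared. CCAAT lay in 22 of 31 windows (71.0%), against 37.9% of the other genes and 39.2% of those compared. Related lists held these words too: CCAAT lay in 35 of 46 windows of G2/M genes and 23 of 53 of other replication genes, and an E2F word in 1 of 46 and 12 of 53. In no member window did an E2F word and a CCAAT word share a base. The stretches of 250 bases before the start are shown for Dtl, whose level differed least between the libraries, and Pcna. Pcna had the most UMIs over both libraries together. Casp8ap2 had the highest ratio among the genes with a window and at least 10 UMIs per 1000000 (CPM). Mcm6 was the one member with more than 1 E2F word, and both were added after their values were seen. The sequences are written 5′ to 3′ on the strand of the gene, with the searched words in capitals.
Dtl: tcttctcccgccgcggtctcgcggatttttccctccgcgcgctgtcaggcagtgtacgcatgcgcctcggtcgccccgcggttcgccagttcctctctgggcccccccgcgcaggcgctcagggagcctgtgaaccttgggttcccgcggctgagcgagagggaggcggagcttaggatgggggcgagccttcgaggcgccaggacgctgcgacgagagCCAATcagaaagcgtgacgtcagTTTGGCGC
Pcna: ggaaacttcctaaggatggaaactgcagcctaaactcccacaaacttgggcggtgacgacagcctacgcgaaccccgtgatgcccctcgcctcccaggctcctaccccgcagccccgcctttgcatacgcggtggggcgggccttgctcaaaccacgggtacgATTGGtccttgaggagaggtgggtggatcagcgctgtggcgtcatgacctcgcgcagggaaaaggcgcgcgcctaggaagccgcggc
Casp8ap2: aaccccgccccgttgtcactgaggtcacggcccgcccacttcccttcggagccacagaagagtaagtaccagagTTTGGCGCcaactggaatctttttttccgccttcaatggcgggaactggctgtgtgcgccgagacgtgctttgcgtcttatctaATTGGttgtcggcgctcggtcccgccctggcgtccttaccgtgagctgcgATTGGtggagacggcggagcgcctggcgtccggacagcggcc
Mcm6: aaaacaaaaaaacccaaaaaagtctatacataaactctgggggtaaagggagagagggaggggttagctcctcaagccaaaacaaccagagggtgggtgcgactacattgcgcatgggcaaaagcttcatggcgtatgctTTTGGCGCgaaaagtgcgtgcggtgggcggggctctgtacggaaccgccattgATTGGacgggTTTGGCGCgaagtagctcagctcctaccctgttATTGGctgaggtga
The Dtl sequence lies at chr1:191575545-191575794 on the minus strand, with its E2F word starting 8 bases before the gene start and 1 CCAAT word upstream of it. The Pcna sequence lies at chr2:132253181-132253430 on the minus strand and holds 1 CCAAT word, written there as its reverse complement, and no E2F word. The Casp8ap2 sequence lies at chr4:32615220-32615469 on the plus strand, with an E2F word 176 bases before the start and 2 CCAAT words. The Mcm6 sequence lies at chr1:128359706-128359955 on the minus strand, with E2F words 110 and 47 bases before the start and 2 CCAAT words. The 10 genes with an E2F word had a median log2 ratio between the libraries of 0.55 (range 0.10 to 0.82), and the 21 without one a median of 0.54 (range 0.20 to 0.91). The ranges of those groups overlapped.

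The vehicle library held 5476 cells and 99107718 UMIs, and the retinoic acid library 7140 cells and 110088247 UMIs, after cells under 1000 UMIs or 500 genes or over 10% mitochondrial UMIs were left out. A cell held a median of 16749.5 UMIs under vehicle and 14604 under retinoic acid; 11 cell barcodes occurred in both libraries. The sort label was checked against 8 promyelocyte genes, which took 1.13% of vehicle UMIs and 2.14% of retinoic acid UMIs. Its genes went in both directions: Mpo, the defining peroxidase of promyelocytes, stood at 311 CPM under vehicle and 0.50 CPM under retinoic acid, whereas the protease genes Elane and Prtn3 stood at 62.8 and 7663 CPM and at 246 and 2819 CPM. Ms4a3 stood at 850 and 2087 CPM and Ctsg at 6444 and 5979 CPM. Prss57 (377 and 315 CPM), Cst7 (813 and 706 CPM) and Srgn (2171 and 1811 CPM) were also lower under retinoic acid. The 18 granule genes took 0.212% of vehicle UMIs and 6.45% of retinoic acid UMIs, and of these Cxcr2 alone was lower under retinoic acid (16.6 and 6.82 CPM). The 9 mast cell and basophil genes took 0.0806% and 0.00681%, with Fcer1a and Tpsb2 at 0 in both libraries. Cpa3 was the highest of them under vehicle, at 570 CPM, above Mpo, and stood at 0.10 CPM under retinoic acid. Mcpt8 stood at 122 and 63.1 CPM, Hdc at 67.0 and 1.71 CPM and Gata2 at 43.2 and 1.14 CPM. Ms4a2 went the other way, at 1.45 and 2.05 CPM. The 6 eosinophil genes took 0.0114% and 0.00305%. The 8 erythroid genes took 0.0016% and 0.00019%, the 7 B cell genes 0.00089% and 0.00063%, and the 7 monocyte and macrophage genes 0.0167% and 0.00209%. The 7 T and NK cell genes took 0.129% and 0.0575%, nearly all of it Nkg7, with Cd3e and Trbc2 at 0 in both. The part of these marker differences in the results on replication genes was not tested.

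All 41 replication genes had higher summed levels in the retinoic acid library. Together they took 0.186% of the UMIs under vehicle and 0.274% under retinoic acid. Their median log2 ratio was 0.59, while the 7269 genes with a mean of at least 10 CPM had a median of 0.003. Of the 40 members that reached 10 CPM, 20 (50%) were at least 1.5-fold higher and 0 lower; over all genes compared 7.83% were at least 1.5-fold higher and 9.73% at least 1.5-fold lower. Brip1, the member under 10 CPM, was also above 1.5-fold. At 2-fold the count was 1 member higher, Ccne2, and 0 lower, beside 2.7% and 4.57% of all genes. A summed level joins the number of cells that carry a transcript with its level per cell, and it cannot tell them apart.

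Ccne2 encodes cyclin E2, which with its kinase starts S phase. The gene lies at chr4:11191351-11204779 (GRCm38, plus strand). It had 904 UMIs (9.12 CPM) under vehicle and 2579 UMIs (23.4 CPM) under retinoic acid, a 2.57-fold difference with a counting interval of 2.38 to 2.77, the highest of the 41. E2f8, the other gene of cycle control and an atypical E2F that represses S phase genes late in the cycle, had 24.8 CPM and 34.1 CPM, a log2 ratio of 0.46. The 2 genes of this step therefore stood far apart, and their median of 0.91 describes neither.

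The chromatin and histone supply genes came next, with a median log2 ratio of 0.62 over 11 genes (range 0.29 to 0.86) and 7 of them at least 1.5-fold higher. Atad2, a bromodomain ATPase of replicating chromatin, stood at 90.6 CPM under vehicle and 165 CPM under retinoic acid (log2 0.86, interval 0.83 to 0.90). Casp8ap2, also called FLASH and needed to process histone mRNAs, stood at 31.0 and 54.6 CPM (log2 0.82). Cdca7 and Hells encode the partners of a chromatin remodelling complex that helps keep DNA methylated. Cdca7 stood at 33.0 and 58.0 CPM (log2 0.81), and Hells at 19.4 and 32.3 CPM (log2 0.74). Uhrf1, which reads half-methylated DNA behind the fork, stood at 32.0 and 51.6 CPM (log2 0.69). Slbp, the protein that binds the stem loop of histone mRNAs, stood at 99.5 and 153 CPM (log2 0.62). Cenpu of the centromere, the histone chaperones Chaf1b and Nasp, and Wdr76 had log2 ratios of 0.62, 0.53, 0.51 and 0.46. Ubr7, a histone-binding ubiquitin ligase, was lowest in this step, at 15.2 and 18.6 CPM (log2 0.29).

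The repair and fork protection genes had a median log2 ratio of 0.60 over 8 genes (range 0.26 to 0.91), with 4 of them at least 1.5-fold higher; without Brip1, which is under 10 CPM, the median was 0.55 with 3 of 7, below those of nucleotide supply and licensing. Brip1, a helicase of crosslink repair, had 614 UMIs (6.20 CPM) under vehicle and 1282 UMIs (11.6 CPM) under retinoic acid (log2 0.91, interval 0.77 to 1.05). Exo1, a nuclease of mismatch repair and end resection, stood at 7.75 and 13.2 CPM (log2 0.76). Clspn, the checkpoint adaptor claspin, stood at 20.6 and 34.6 CPM (log2 0.75), while its fork partner Tipin stood at 94.7 and 125 CPM (log2 0.40). These partners thus differed in ratio by more than their counting error. Rad51ap1, which assists strand exchange, had a log2 ratio of 0.66, and Usp1, which removes ubiquitin from Pcna, one of 0.55. Ung, which cuts uracil out of DNA, stood at 15.1 and 19.9 CPM (log2 0.40). Blm, the Bloom helicase, stood at 15.8 and 19.0 CPM (log2 0.26), the lowest of this step.

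The 3 genes of nucleotide supply had closely similar ratios, with a median log2 of 0.59. Rrm1, the large subunit of ribonucleotide reductase, stood at 67.5 CPM under vehicle and 104 CPM under retinoic acid (log2 0.63). Tyms, thymidylate synthase, stood at 73.3 and 110.4 CPM (log2 0.59). Rrm2, the small subunit of the reductase and the part that is made and destroyed with each cycle, stood at 99.96 and 146 CPM (log2 0.54). The 3 genes lay close together between the libraries and far apart when the retinoic acid cells were split by granule share, as described further on.

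The licensing and helicase genes had a median log2 ratio of 0.58 over 9 genes, of which 4 were at least 1.5-fold higher. The helicase subunits Mcm4 and Mcm5 had ratios of 0.69 and 0.68, and Mcm2 and Mcm6, subunits of the same ring, 0.52 and 0.41. Mcm5 stood at 64.5 CPM under vehicle and 103 CPM under retinoic acid, and Mcm6 at 123 and 164 CPM. Gins2 of the GINS complex had a log2 ratio of 0.63, Cdc6, the loader, 0.58 and Cdc45, the activator, 0.49. Gmnn encodes geminin, the inhibitor that keeps origins from firing again, and stood at 90.9 and 139 CPM (log2 0.61). Dtl, the adaptor that sends the licensing factor Cdt1 to destruction, was the member that differed least, with 1928 UMIs (19.5 CPM) and 2290 UMIs (20.8 CPM). Its log2 ratio was 0.10, with a counting interval of 0.01 to 0.18.

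The genes of synthesis at the fork had the lowest median log2 ratio, 0.45 over 8 genes, with a range of 0.20 to 0.78. Prim1, the catalytic subunit of primase, was highest, at 26.1 CPM under vehicle and 44.7 CPM under retinoic acid (log2 0.78). Dscc1, part of an alternative clamp loader that links replication to sister chromatid cohesion, stood at 9.46 and 15.9 CPM (log2 0.75). Pcna, the sliding clamp, had 12154 UMIs (123 CPM) under vehicle and 20536 (187 CPM) under retinoic acid, with a log2 ratio of 0.61. It had the most UMIs of the 41 genes under retinoic acid and over both libraries, while under vehicle Mcm6 had more (12211). Pold3 of polymerase delta had a ratio of 0.53. The flap nuclease Fen1 and the polymerase alpha subunit Pola1 both had 0.37 to 0.38, the clamp loader subunit Rfc2 0.32, and Rpa2, which coats single strands, 0.20. The ranges of the 6 steps overlapped, so the order of their medians describes these libraries and sets no step apart.

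**Figure D1:**
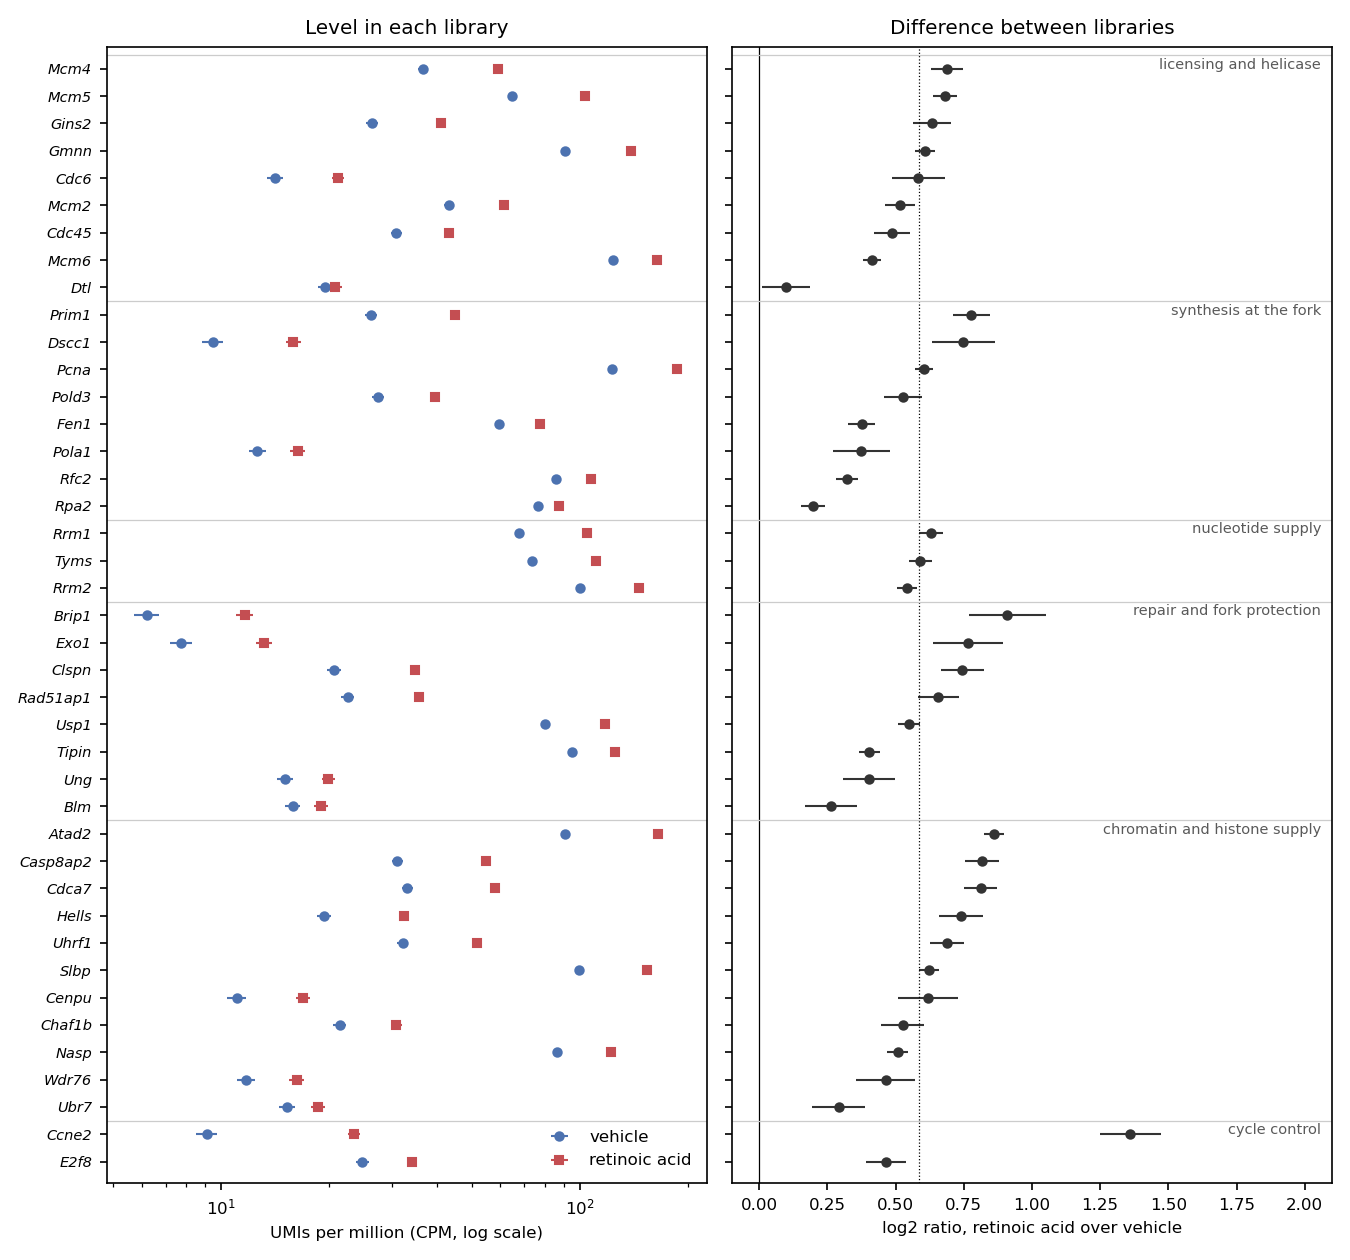
Level of each of the 41 genes in CPM on a log axis (left; circles vehicle, squares retinoic acid, 1 library each) and the log2 ratio between them (right), with 95% counting intervals; grey lines separate the 6 steps and the dotted line marks 1.5-fold. Every ratio lies above 0, from 0.10 for Dtl to 1.36 for Ccne2.

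Counting cells, which uses the same UMIs, gave the same direction. For this, 5282 vehicle cells and 6659 retinoic acid cells with at least 5000 UMIs were thinned to 5000; the 194 and 481 shallower cells were not used. The share of cells with a UMI was higher under retinoic acid for all 41 genes, with a median of 12% under vehicle and 19.1% under retinoic acid. How many of all genes had a higher share was not counted. Pcna was found in 36.0% of vehicle cells (interval 34.7 to 37.3%) and 50.7% of retinoic acid cells (49.5 to 51.9%). Ccne2 was found in 4.58% and 10.7% of cells. As a floor, cells with at most about 4 UMIs of the other 40 genes had a Pcna UMI in 18.6% of cases under vehicle and 22.6% under retinoic acid, at median depths of 13813 and 11437 UMIs before thinning, and a Ccne2 UMI in 0.83% and 0.99%. Such cells may still express Pcna, so its floor is not pure background.

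The 41 genes together gave a median of 6 UMIs per thinned cell under vehicle and 11 under retinoic acid. Cells with at least 17 such UMIs, the 75th percentile over both libraries, are called member-rich here, and cells with at most 4, the 25th percentile, member-poor. Member-rich cells made up 15.6% of vehicle cells (interval 14.6 to 16.6%) and 33.2% of retinoic acid cells (32.1 to 34.4%), and member-poor cells 41.1% and 16.5%. Both are ranges of a score and not cell types: 277 vehicle and 513 retinoic acid cells lay within 1 UMI of the upper limit, and 1394 and 1021 within 1 UMI of the lower one. Member-rich cells were deeper than member-poor cells before thinning, with median UMIs of 19834 against 13738 under vehicle and 15617 against 11081 under retinoic acid. Their median G2/M UMIs, from a list of 52 genes, were 25 against 6 under vehicle and 24 against 8 under retinoic acid. Cells with many replication transcripts were thus a larger share of the retinoic acid library.

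**Figure D2:**
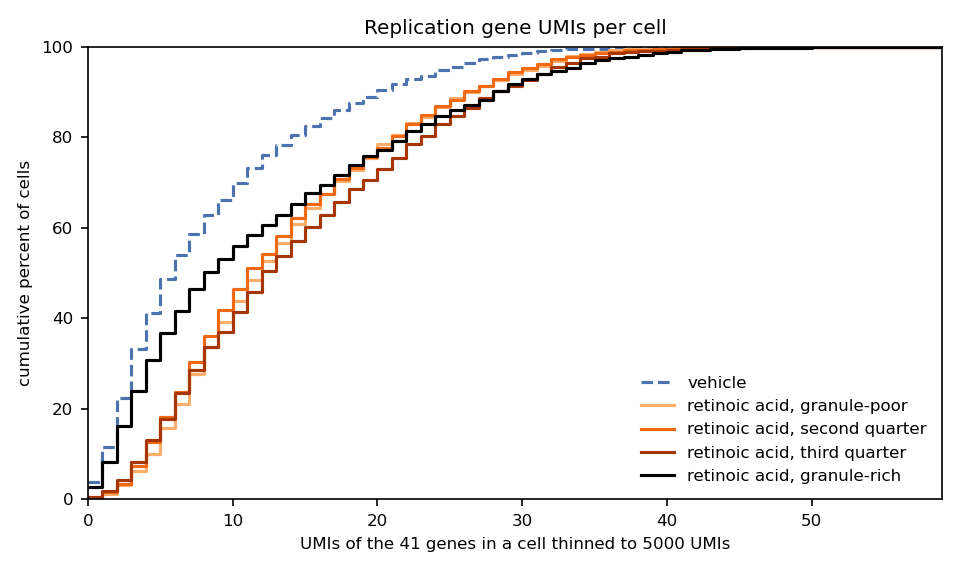
Cumulative percent of cells against the number of UMIs of the 41 genes in a cell thinned to 5000 UMIs, for vehicle cells (dashed) and for 4 groups of retinoic acid cells by granule share (solid). The vehicle curve lies to the left (median 6 UMIs), and the granule-rich curve starts near it and joins the other retinoic acid curves at high counts.

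Each gene was next read in cells rich in the other 40 genes, so that its own UMIs did not choose the cells. One limit for both libraries makes the cells nearly equal in their content of the list, so a list median near 0 is largely set by that choice and is no finding; the values show which genes lie away from the rest. These were 807 to 914 vehicle cells and 2174 to 2356 retinoic acid cells, depending on the gene. Here the median log2 ratio between libraries was 0.18, with 34 genes above 0 and 7 below. Only Ccne2 and Casp8ap2 reached 1.5-fold, which is 2 of 41 genes beside 5.79% of all genes compared in member-rich cells at least 1.5-fold higher and 9.9% lower; the median of all genes there was -0.07. Ccne2 stood at 30.1 CPM in such vehicle cells and 51.7 CPM in such retinoic acid cells (log2 0.78, interval 0.64 to 0.93). Casp8ap2 stood at 50.4 and 78.2 CPM (log2 0.63, interval 0.53 to 0.74). Atad2 (204 and 281 CPM) and Brip1 (15.2 and 21.7 CPM) followed at log2 0.46 and 0.50. Rrm2 was at 293 and 288 CPM, a log2 ratio of -0.02 with an interval of -0.07 to 0.03. Blm, Rpa2 and Dtl were lowest, at -0.13, -0.13 and -0.11, and of these the interval of Rpa2 alone lay below 0. Member-rich cells held a median of 22 member UMIs under vehicle and 24 under retinoic acid, so the libraries were close but not equal in content in this class.

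Cells poor in the other genes, 2175 to 2335 under vehicle and 1103 to 1248 under retinoic acid, differed more. Their median log2 ratio was 0.73 with 36 genes above 0, and of the 26 genes with at least 10 CPM there, 15 were at least 1.5-fold higher and 0 lower, beside 11.3% and 13% of all genes. All genes compared in member-poor cells had a median of 0.003, with 3569 of 7094 above 0. Mcm5 stood at 13.7 CPM in vehicle cells and 36.0 CPM in retinoic acid cells (log2 1.39), Rrm1 at 16.9 and 43.9 CPM (log2 1.38) and Uhrf1 at 6.17 and 14.8 CPM (log2 1.26). These values are low, and the classes are equal in UMI limits and not in content: median member UMIs were 2 in member-poor vehicle cells and 3 in member-poor retinoic acid cells. The median share of UMIs in the granule genes was 0.1% in the former and 8.31% in the latter. Ung and Cdc6 went the other way, Ung at 6.72 and 2.65 CPM (log2 -1.33, interval -1.88 to -0.84) and Cdc6 at 4.69 and 2.16 CPM (log2 -1.10, interval -1.72 to -0.55). Both were higher under retinoic acid over all cells. Dtl was lower in this class too, at 7.77 and 5.40 CPM (log2 -0.52). How much a gene depended on the class varied from gene to gene: in the retinoic acid library the log2 ratio of rich over poor cells had a median of 2.30, from 1.14 for Blm and 1.17 for Usp1 to 4.49 for Cdc6 and 5.19 for Dscc1. Across the 41 genes this ratio and the difference between the libraries had a Pearson r of 0.39 and a Spearman rho of 0.36, which share the same libraries and depths.

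**Figure D3:**
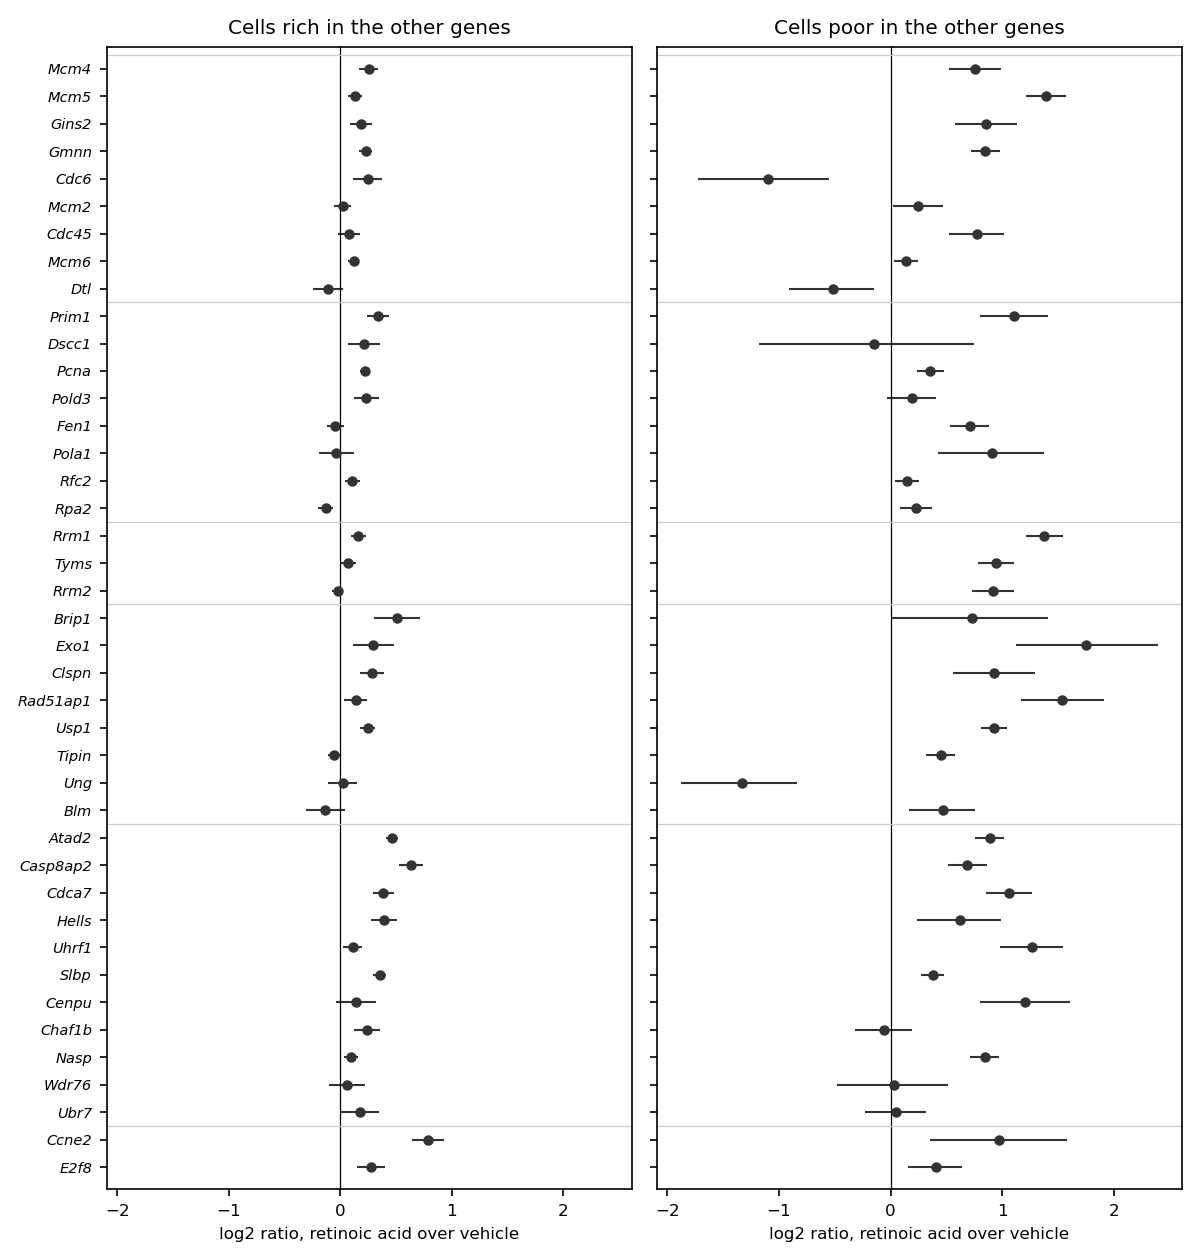
Log2 ratio of retinoic acid over vehicle for each gene, with 95% counting intervals, in cells rich (left) and poor (right) in the other 40 genes, in the same order of steps as in the plot of both libraries. Ratios in rich cells run from -0.13 (Blm) to 0.63 (Casp8ap2) and 0.78 (Ccne2), and in poor cells they spread from -1.33 (Ung) to 1.75 (Exo1).

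Granule genes encode proteins that maturing neutrophils store in their secondary granules and other products of late maturation. Retinoic acid cells of at least 5000 UMIs were put in 4 groups of near equal size by the share of their UMIs in 18 granule genes such as Camp, Ngp, Ltf and S100a8. The granule-poor group (1681 cells) held at most 1.52% granule UMIs and the granule-rich group (1665 cells) at least 10.49%, with 337 and 263 cells within 10% of those limits. Granule-rich cells were shallower, with a median of 10792 UMIs against 17902, and had 2643 genes against 3977 and a median of 11 G2/M UMIs against 30. Granule RNA took 21.1% of all UMIs of the granule-rich group, so levels are given as CPM of the UMIs outside the granule genes; as CPM of all UMIs every log2 ratio of rich over poor is lower by 0.33.

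The granule-rich group was mixed. Member-rich cells made up 30.6% of it (interval 28.4 to 32.8%) and 32.6% of the granule-poor group (30.4 to 34.9%), intervals that overlap. Member-poor cells, in contrast, made up 30.7% of the granule-rich group (28.5 to 33.0%) and 9.93% of the granule-poor group (8.55 to 11.5%). The groups between had 32.6% and 37.1% member-rich and 12.6% and 13% member-poor cells. With each cell thinned to 3500 UMIs outside the granule genes instead, a setting added after the data were seen, member-rich cells made up 38.0% of granule-rich and 33.8% of granule-poor cells, and member-poor cells 24.5% and 14%. Granule-rich cells thus held a larger share of cells with few replication transcripts beside a share of member-rich cells like that of granule-poor cells on the first scale; vehicle cells had 15.6% member-rich cells and 41.1% member-poor cells.

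Over all 41 genes the median log2 ratio of granule-rich over granule-poor cells was 0.16, with 30 genes above 0 and 11 below, while all 7303 genes compared had a median of -0.03. Between the lowest and highest 10% of cells by granule share the median was -0.035, with 3 genes at least 1.5-fold higher and 6 lower. The share of all genes past 1.5-fold was not counted for these 10% groups, and the shares below belong to the granule-rich and granule-poor groups. As CPM of all UMIs the median became -0.17, with 11 above 0 and 30 below, and all genes had a median of -0.36, so the direction of the list turned with the scale and with the limits of the groups. At least 1.5-fold higher were 4 of 41 genes (9.76%) and lower 0, beside 13.7% and 11.2% of all genes, so the share of members past 1.5-fold was not above that of genes at large. At 2-fold no member was past the limit in either direction (0 of 41), beside 5.87% and 2.86%. Rrm2, Slbp, Ccne2, E2f8, Pcna and Tyms had intervals above 0 on both scales, and Exo1, Rpa2, Nasp, Gins2 and Usp1 intervals below 0 on both.

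Rrm2 was the member with the steepest course along granule share. It stood at 119 CPM in the granule-poor group, 134 and 179 CPM in the groups between and 235 CPM in the granule-rich group, a log2 ratio of 0.98 (interval 0.92 to 1.05). The other subunit of the same enzyme, Rrm1, stood at 109, 109, 122 and 105 CPM (log2 -0.05, interval -0.14 to 0.04), and Tyms at 106, 111, 129 and 142 CPM (log2 0.43). Slbp stood at 137, 142, 172 and 244 CPM (log2 0.83), whereas Nasp, the chaperone that holds soluble histones, stood at 137, 134, 131 and 116 CPM (log2 -0.25). Genes of 1 pathway, even of 1 enzyme, thus differed in course. Ccne2 stood at 20.7, 21.2, 27.5 and 36.7 CPM (log2 0.83, interval 0.66 to 0.99), E2f8 at 30.3, 32.0, 41.7 and 47.8 CPM (log2 0.66), and Pcna at 178, 184, 211 and 249.7 CPM (log2 0.49). On the other side Exo1 stood at 14.7, 15.2, 14.3 and 10.8 CPM (log2 -0.44, interval -0.70 to -0.18) and Rpa2 at 99.5, 93.3, 92.8 and 83.6 CPM (log2 -0.25). Levels were higher with each step of granule share for 17 genes and lower with each step for 3. As CPM of all UMIs these counts were 4 and 4. Such counts were not made over all genes, so they do not set the members apart.

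By step, the median log2 ratio of granule-rich over granule-poor cells was 0.74 for cycle control (2 genes, 0.66 to 0.83). It was 0.43 for nucleotide supply (3 genes, -0.05 to 0.98) and 0.26 for synthesis at the fork (8 genes, -0.25 to 0.49). Licensing and helicase had 0.17 (9 genes, -0.20 to 0.34) and chromatin and histone supply 0.11 (11 genes, -0.25 to 0.83). Repair and fork protection had 0.06 (8 genes, -0.44 to 0.41). The ranges of the steps other than cycle control overlapped, so the order of their medians sets none of them apart. As CPM of all UMIs every median is lower by 0.33, and only those of cycle control and nucleotide supply stay above 0. Among the helicase genes Mcm6 (0.34), Mcm4 and Cdc45 (0.29 each) and Cdc6 (0.22) were above Gmnn (0.17), Mcm2 (0.11) and Mcm5 (0.10), with Dtl (-0.12) and Gins2 (-0.20) below 0. Among the fork genes Dscc1 and Rfc2 (0.34 each), Prim1 (0.27) and Pold3 (0.25) stood below Pcna, while Fen1 (-0.02) and Pola1 (-0.19) were not above 0. Among the repair genes Brip1 (0.41), Clspn (0.38) and Tipin (0.30) were above 0, Rad51ap1 (0.09) and Ung (0.03) near it, and Blm (-0.12) and Usp1 (-0.19) below. The remaining chromatin genes lay between -0.06 for Uhrf1 and 0.19 for Atad2. The 52 G2/M genes had a median of -0.13.

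Rrm2, Slbp, Ccne2 and E2f8 were also at least 1.5-fold higher within cells rich in the other 40 genes. This reading was added after the data were seen. It uses part of the cells in which those genes already stood highest, so it is no independent support. Cells were chosen here at 3500 UMIs outside the granule genes, the same total that the levels use, which gave 518 to 592 granule-poor and 562 to 620 granule-rich cells. The choice again makes both groups nearly equal in the list as a whole, and the median log2 ratio of 0.20 is given as a description only. Lower by 1.5-fold were 0 of 41 genes, beside 9.05% of all genes. At least 1.5-fold higher were 6 of 41 genes, a share not far from the 11.9% of all genes. They were Rrm2 (236 and 462 CPM, log2 0.97), Slbp (208 and 389 CPM, log2 0.90), Ccne2 (41.5 and 77.0 CPM, log2 0.89), E2f8 (46.7 and 76.1 CPM, log2 0.70), Tyms (165 and 256 CPM, log2 0.63) and, at the limit, Pcna (304 and 457 CPM, log2 0.59). The 5 genes with intervals below 0 on both scales in the whole groups had intervals that include 0 here. Exo1 was at -0.25 (interval -0.56 to 0.05), Nasp at -0.07, Gins2 at -0.04, Usp1 at -0.03 and Rpa2 at -0.02.

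Against the vehicle cells, which both comparisons share, granule-poor cells had a median log2 ratio of 0.61 with all 41 genes above 0, and granule-rich cells 0.76 with all 41 above 0. All genes compared had a median of 0.11 in granule-poor cells, with 4618 of 7326 above 0. In granule-rich cells their median was 0.08, with 4118 of 7413 above 0. At least 1.5-fold higher were 22 of 40 genes in granule-poor cells, beside 7.36% of all genes, and 30 of 40 in granule-rich cells, beside 19.3%; 0 were that much lower in either, beside 7.29% and 14.1%. As CPM of all UMIs the medians were 0.60 and 0.42, and Rpa2, Dtl and Blm were then below vehicle in granule-rich cells. Ccne2 stood at 9.18 CPM in vehicle cells, so its log2 ratio was 1.17 in granule-poor cells and 2.0 in granule-rich cells. Rrm2, at 101 CPM in vehicle cells, had ratios of 0.24 and 1.23, and Slbp, at 99.7 CPM, 0.46 and 1.29. For Exo1, at 7.79 CPM, they were 0.92 and 0.48. Rrm2 was therefore the member nearest to its vehicle level in granule-poor cells, whereas in granule-rich cells its ratio was exceeded by those of Ccne2, Brip1 and Slbp alone.

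**Figure D4:**
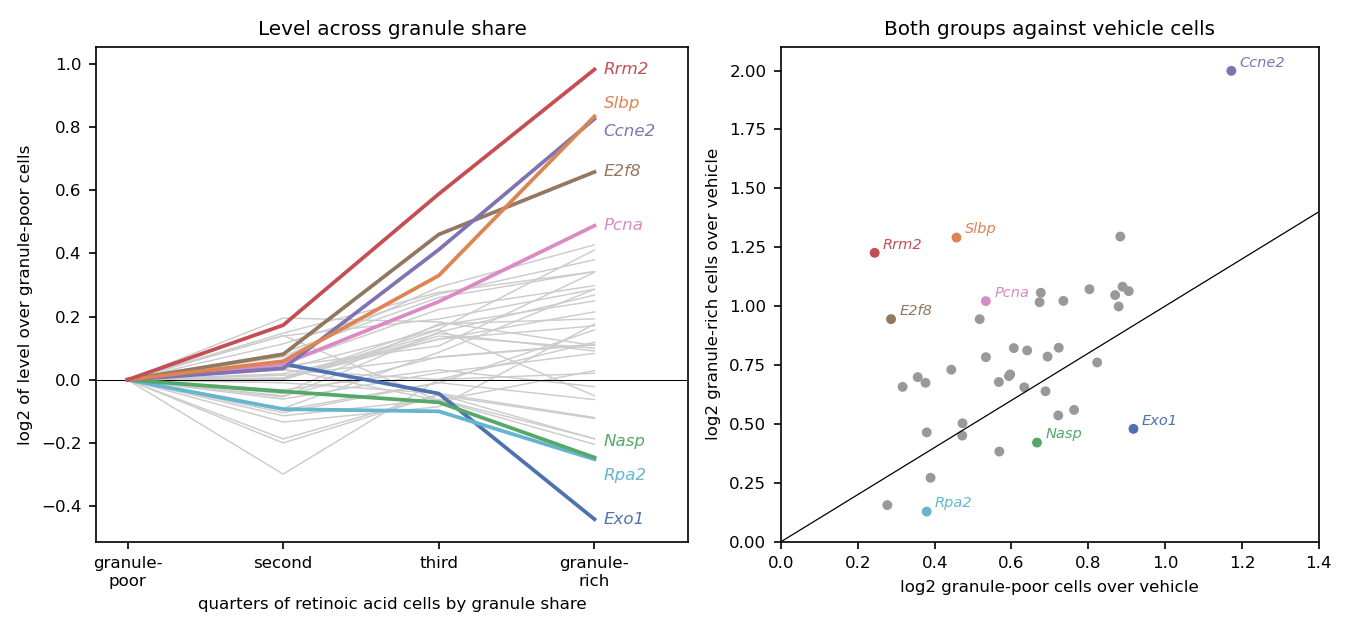
Left, log2 level of each gene over its level in granule-poor cells across 4 groups of retinoic acid cells by granule share, in CPM outside the granule genes (8 genes in colour, 33 in grey). Right, log2 ratio to vehicle cells in granule-rich against granule-poor cells, with the line of equal values; Rrm2 (0.24 and 1.23), Slbp, E2f8 and Ccne2 lie furthest above the line and Exo1 (0.92 and 0.48) furthest below it.

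The 41 genes also differed in where they stood along the cycle, read here from the 52 G2/M genes, none of which is a member. Cells of each library were put in 4 groups by G2/M UMIs, with median counts of 4, 9, 26 and 53 under vehicle and 7, 17, 40 and 65 under retinoic acid, so groups of the same rank are not equal between the libraries. Under retinoic acid 30 genes had their highest level in the second group, 10 in the third and 1, Blm, in the fourth. Under vehicle 38 had it in the third group, Ung in the second, and Blm and Cenpu in the fourth. No member was highest in the group with the fewest G2/M UMIs in either library. Such counts were not made over all genes, so they do not set the members apart.

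Ung had the steepest decline with G2/M content in both libraries: 25.5, 54.7, 8.75 and 1.39 CPM with growing G2/M content under retinoic acid, and 8.58, 28.2, 27.8 and 2.09 CPM under vehicle. Its log2 ratio of the highest over the second group was -5.28 under retinoic acid and -3.74 under vehicle. Cdc6 followed under retinoic acid at -3.48, with 15.5, 50.8, 19.5 and 4.54 CPM, then Dscc1 (-2.88), Ccne2 (-2.65) and Hells (-2.62). At the other end Blm stood at 6.69, 16.6, 23.3 and 24.2 CPM under retinoic acid (log2 0.54), next to Cenpu (0.28), E2f8 (-0.04) and Rrm1 (-0.06). Rrm2 was at 34.4, 191, 218 and 115 CPM. Ung and Cdc6 thus lay at the early end of the order under retinoic acid, and the centromere gene Cenpu, the repressor E2f8 and the helicase Blm at the late end. The genes that were higher in granule-rich cells on both scales came from different places in that order. Ccne2 was early, Pcna (-1.53), Slbp (-0.94) and Rrm2 (-0.73) between, and Tyms (-0.33) and E2f8 later.

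**Figure D5:**
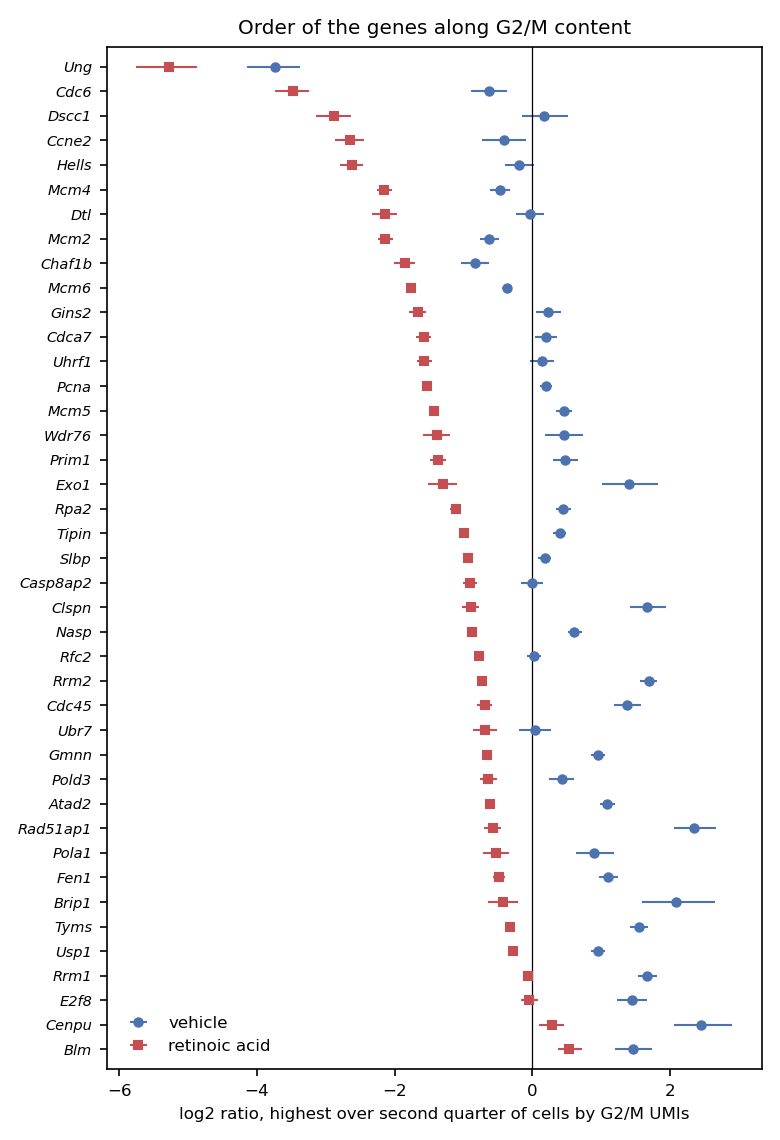
Log2 ratio of the level in the highest over the second of 4 groups of cells by G2/M UMIs, for each gene in the vehicle (circles) and retinoic acid (squares) library, with 95% counting intervals and genes sorted by the retinoic acid value. Values run from -5.28 (Ung) to 0.54 (Blm) under retinoic acid, and from -3.74 (Ung) to 2.46 (Cenpu) under vehicle, whose second group held fewer G2/M UMIs (median 9 against 17).

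The other 65 replication genes, a list of remaining subunits and partners, had a median log2 ratio between the libraries of 0.41, lower than the 0.59 of the members, with 54 above 0 and 11 below. Of the 55 with at least 10 CPM, 15 were at least 1.5-fold higher and 1 lower, beside 7.83% and 9.73% of all genes. The highest were the salvage kinases Tk1 (27.5 and 67.2 CPM, log2 1.29) and Dck (11.6 and 23.3 CPM, log2 1.00), the histone chaperone Asf1b (0.85), Ccne1, which encodes cyclin E1 (0.80), and the primase subunit Prim2 (0.78). Among the lowest were the nuclease and helicase Dna2 (29.2 and 14.1 CPM, log2 -1.04), the polymerase delta subunit Pold2 (-0.42), the origin recognition subunit Orc4 (-0.21) and the polymerase alpha subunit Pola2 (-0.19). Primase and polymerase alpha work as 1 complex, and its genes had log2 ratios of 0.78 for Prim1 and Prim2, 0.37 for Pola1 and -0.19 for Pola2. Between granule-rich and granule-poor cells the 65 genes had a median of -0.03. Of the 56 with at least 10 CPM there, 8 were at least 1.5-fold higher and 5 lower, beside 13.7% and 11.2% of all genes. Ccne1 stood at 14.2 CPM in granule-poor and 38.2 CPM in granule-rich cells (log2 1.42) and Dck at 18.6 and 40.9 CPM (log2 1.14). Both cyclin E genes were thus higher in granule-rich than in granule-poor cells. The 52 G2/M genes had a median log2 ratio between the libraries of 0.50, with 50 above 0. At least 1.5-fold higher were 15 of them and lower 0, beside 7.83% and 9.73% of all genes.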

How the data were processed

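Droplet single-cell RNA-seq (10x Genomics Chromium, 3′ chemistry, per the labels' protocols) measured 1 vehicle and 1 retinoic acid library. The authors deposited raw UMI counts per gene and cell, made with Cell Ranger 4.0.0 on mm10 (GRCm38.p4), per the submitters' processing notes; filters on cells before deposit were not given in the sources used here. Both matrices held 32285 gene identifiers; 32235 matched GENCODE M21, the 41 members included.

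Cells with at least 1000 UMIs, at least 500 genes and at most 10% mitochondrial UMIs were kept (5476 of 5786 and 7140 of 7416 barcodes). Counts were summed per group and given as CPM, UMIs per 1000000 UMIs of the group. Levels of a gene were compared between groups only, since 3′ UMI counts of different genes are not set on a scale per length. Ratios are log2 with 0.5 counts added to each sum, and 95% intervals are exact binomial for ratios and shares and exact Poisson for levels; they cover counting error only. Genes with a mean of the 2 groups of at least 10 CPM were compared, and 1.5-fold was used as a rule of size; with 1 library per group no test was made. Cells of at least 5000 UMIs were thinned to 5000 for shares and for choosing cells. A level of 0 allows up to 3 counts. Scrublet marked 1 and 7 cells (0.0183% and 0.098%), too few to be taken as working, so no doublets were removed; leaving out the 5% of cells with the highest scores was an alternative.

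All 41 members are named, and of the other replication genes the 5 highest and the 5 lowest ratios among those with at least 10 CPM; 1 of these is not reported here. By rule the promoter of the member with the most UMIs over both libraries (Pcna) was to be shown. So were those of the highest (Ccne2) and lowest (Dtl) ratio. Ccne2 had no window, and Casp8ap2 and Mcm6 were added after their values were seen. The assignment of members to steps was made for this report. The members, gene lists and rules were chosen with earlier results of these data known. The ratio and interval code was tested on simulated data. Alternatives changed the filters, the scaling, the weights of cells, the limits of the groups and the fold. Python 3.11.15, numpy 2.4.6, scipy 1.17.1, pandas 2.3.3, scanpy 1.11.5, matplotlib 3.10.9, R 4.3.3 and edgeR 4.0.16 (for TMM factors) were used.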

Additional observations from a re-analysis of the deposited data

How the results depend on the processing

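No paired analysis was possible because there was 1 library in each group, and no library could be left out. Of 995 values under alternatives, 689 stayed within their counting interval (or within 1.5 times for counts), 277 moved and 29 changed sign; of the 861 for single genes 590, 244 and 27 did. Between the libraries, over all cells kept, no member changed sign under any alternative run.

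With TMM scaling the members' median log2 ratio was 0.67, and step medians were 0.66 for licensing, 0.67 for nucleotide supply and 0.68 for repair. With equal weight for every cell they were 0.73, 0.68, 0.75 (nucleotide supply) and 0.73, with 0.74 for chromatin and 1.08 for cycle control. With the granule genes left out of the total they were 0.68, 0.68, 0.68 and 0.70, with 0.54 for synthesis and 1.00 for cycle control. At a minimum of 50 CPM 7 members were past 1.5-fold, medians were 0.35 for synthesis and 0.48 for repair, and cycle control had no member left. The share of all genes was not counted at that minimum. At 2-fold 1 member remained past the limit.

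Between granule-rich and granule-poor cells the median was -0.035 for the lowest and highest 10% of cells and -0.17 as CPM of all UMIs. Members past 1.5-fold lower were 6 with those 10% groups, 1 with all UMIs and 1 without S100a8 and S100a9 in the list. Higher were 1 with all UMIs, 2 at 50 CPM and 0 at 2-fold. The share of all genes past 1.5-fold was not counted for the 10% groups, all UMIs, the shorter list or 50 CPM. In cells rich in the other members, added after the data were seen, the median was 0.28 with 7 past the limit where cells were chosen on all UMIs, a total that asks more of granule-rich cells, and 0.20 with 6 where they were chosen outside the granule genes. With the 10% groups Mcm5 (-0.035), Mcm2 (-0.23), Gmnn (-0.18), Atad2 (-0.081), Cdc6 (-0.15) and Brip1 (-0.035) changed sign. With all UMIs Mcm5 (-0.23), Mcm2 (-0.22), Mcm4 (-0.042), Cdca7 (-0.17), Prim1 (-0.061), Hells (-0.15), Gmnn (-0.16), Pold3 (-0.079), Atad2 (-0.14), Cdc45 (-0.042), Cdc6 (-0.11), Tipin (-0.031) and Casp8ap2 (-0.21) did. Without S100a8 and S100a9 Mcm5 (-0.036) and Casp8ap2 (-0.018) did, with equal weight for every cell Mcm5 (-0.019) and Mcm2 (-0.033), and in cells rich in the other members chosen on all UMIs Rpa2 (0.079) and Usp1 (0.041). Among cells at or above the 90th percentile of the other members, Tyms (-0.022) and Rad51ap1 (-0.030) changed sign between the libraries.

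With 3500 UMIs outside the granule genes, member-rich cells were 38.0% of granule-rich cells, and member-poor cells 44.5% of vehicle, 14% of granule-poor, 17.3% of the second and 24.5% of granule-rich cells. The change with all UMIs follows from its construction; the causes of the others were not tested. Genes near 10 CPM, such as Brip1 and Exo1, are limited by counts.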
